A study of Mus musculus with 9 samples.

Results

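The telomere-near ends of the 19 mouse autosomes were described as the last 3 Mb of each chromosome, counted back from the largest base listed for it in the WT table (mm9, as are all coordinates here). A CpG position belonged to them if it was covered by at least 10 reads in each of 5 tables and had at least 0.5 times as many reads in TKO as in WT. This gave 29574 of the 1263118 nuclear CpG positions covered in all 5 tables, and 29574 of 887695 autosomal positions under the same depth rule (3.33%). The assay was reduced representation bisulfite sequencing (RRBS), which cuts DNA with MspI at CCGG and reads the CpGs of fragments of 150 to 250 and 250 to 400 bp, so CpG-rich DNA is overrepresented.

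All cells were J1 mouse embryonic stem cells (a pluripotent line) of passages 7 to 10 on a Dnmt TKO background, that is, without the DNA methyltransferases Dnmt1, Dnmt3a and Dnmt3b. WWD and R carried Dnmt3a2 constructs with mutations so labelled, and WT carried wild-type Dnmt3a2, the shorter isoform of the de novo methyltransferase Dnmt3a. C, for which no construct is recorded, and TKO carried none that the labels name. The labels list 2 samples each for WWD, R, WT and C and 1 for TKO, but 1 table of values per group, here called a pool. The promoter behind the constructs, their amount in the cells and whether a line came from 1 clone are not given in the sources used here.

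Mouse chromosomes carry the centromere at one tip, where coordinates start, so the largest coordinates lie next to the telomere of the long arm. The telomere repeat itself holds no CpG and is not in these tables, and what can be methylated is the subtelomeric DNA next to it. In mouse embryonic stem cells subtelomeric DNA is normally methylated by Dnmt1, Dnmt3a and Dnmt3b, and its loss in cells without these enzymes is known to go with longer telomeres and more recombination between them. The ADD domain of Dnmt3a binds the tail of histone H3, and the title of the series names an engineered histone-recognition domain and chromosomal stability among its subjects.

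The pools held 133814232 to 210550841 read calls. In the ends the median coverage per position was 140 reads in WWD, 164 in R, 140 in WT, 123 in C and 137 in TKO. Elsewhere on the same chromosomes it was 138, 161, 138, 121 and 135 reads in the same order. Since each group is 1 pool, no spread between replicates can be given. Differences between the ends and the rest are therefore described by their size and by the number of chromosomes that show them, without a test, and chromosomes are not replicates of a condition. The 19 ends covered 57 Mb, which is 2.36% of the span from the first to the last listed base, and held 3.44% of the autosomal positions of the WT table. That is 1026 positions per Mb in the ends, against 697 in the rest. The excess was carried by 11 of the 19 ends. The end of chromosome 11 had 2884 positions per Mb, against 1116 in the rest of that chromosome, and the end of chromosome 17 had 121 per Mb, against 913.

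Methylation in WT varied with the number of positions listed per 1 kb tile, counted by strand, which stands in for CpG density here. Each end was therefore set against the rest of its own chromosome weighted to the same number of WT-listed positions per tile (the matched rest). All 29574 positions had such a match. With wild-type Dnmt3a2 the ends were partly methylated, at close to the level of the matched rest. Mean methylation in WT was 12.2% in the ends and 12.4% in the matched rest, a difference of -0.191 points. In R it was also 12.2% and 12.4%, a difference of -0.19 points, and in WWD 3.05% and 3.23%, a difference of -0.183 points. C held 0.242% in the ends and 0.244% in the matched rest, and TKO 0.162% and 0.166%. The mean over mitochondrial CpGs, a rough gauge of the signal that incomplete conversion leaves, was 0.0625% to 0.12% in the 5 pools. In TKO it was 0.0771%, below the 0.162% at the nuclear CpGs of the ends. It therefore does not give the background of nuclear positions. Without matching, the rest stood at 3.42% in WWD, 13.3% in R and 13.3% in WT. The sign of these differences depended on the depth rule and on the length taken as the end. Without the rule on TKO coverage the WT difference was 0.0947 points, and over the last 5 Mb it was 0.773 points. It also rested on single chromosomes, being -0.654 points without chromosome 4, -0.124 points without chromosome 8 and 0.112 points without chromosome 15.

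These small mean differences hid a wide spread among chromosomes. The WT difference ranged from -9.93 to 2.82 points (mean -1.57 ± 3.33 points, SD over 19 chromosomes), with 7 ends above and 12 below their matched rest. The spread was 0.909 points in WWD, where 3 ends were above and 16 below, and 2.96 points in R, where 8 were above and 11 below. R and WT had the same sign on 18 of 19 chromosomes, measured at the same positions.

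**Figure D1:**
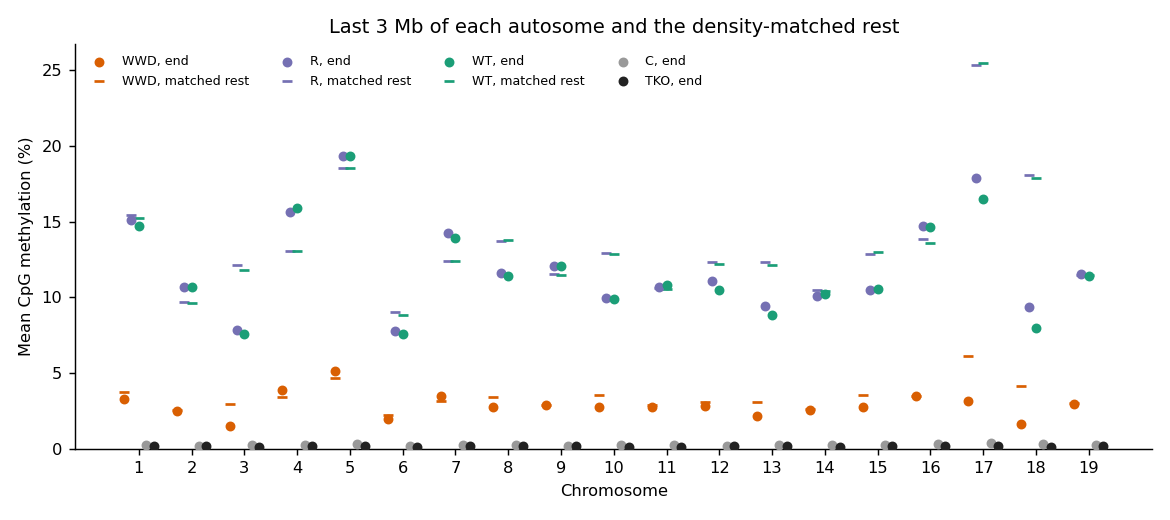
Mean CpG methylation (percent, vertical axis) of the last 3 Mb of each autosome (dots) in WWD, R, WT, C and TKO, with the density-matched rest of the same chromosome as short bars for WWD, R and WT. The ends of chromosomes 17 and 18 differ from their WT bars by -8.99 and -9.93 points, that of chromosome 4 lies above its bar, and C and TKO stay under 0.41% on every chromosome.

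The ends richest in covered CpGs were those of chromosomes 11, 4, 15 and 2, with 4287, 3936, 3568 and 2706 positions. On chromosome 11 the end held 2.78% in WWD, 10.7% in R and 10.8% in WT, against 2.92%, 10.6% and 10.6% in its matched rest. On chromosome 4 the end held 3.91%, 15.6% and 15.9% in the same order, against 3.40%, 13.1% and 13.1%. Chromosome 4 thus had the highest WT difference of the 19. On chromosome 15 the end held 2.78%, 10.5% and 10.6%, against 3.52%, 12.9% and 13.0%. On chromosome 2 the end held 2.52%, 10.7% and 10.7%, against 2.56%, 9.68% and 9.60%. So even among the CpG-rich ends, WT was above the matched rest on 3 chromosomes and below it on 1.

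Among the middle group, 4 further ends were above their matched rest in WT. On chromosome 7 the end held 3.49% in WWD, 14.3% in R and 13.9% in WT, against 3.17%, 12.4% and 12.4% in its matched rest. On chromosome 16 the end held 3.46%, 14.7% and 14.7%, against 3.49%, 13.8% and 13.6%. On chromosome 5 the end had the highest levels of all 19, in all 3 pools. It held 5.13%, 19.3% and 19.3%, against 4.69%, 18.5% and 18.6%. On chromosome 9 the end held 2.86%, 12.1% and 12.1%, against 2.92%, 11.6% and 11.5%. On chromosome 19 the WT end differed from its matched rest by -0.0469 points, with 2.94%, 11.6% and 11.4%, against 3.02%, 11.5% and 11.4%.

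The ends below their matched rest included several that were poor in covered CpGs. On chromosome 18 the end held 1.65% in WWD, 9.37% in R and 7.97% in WT over 213 positions, against 4.14%, 18.1% and 17.9%. On chromosome 17 the end held 3.19%, 17.9% and 16.5% over 182 positions, against 6.13%, 25.3% and 25.5%. On chromosome 3 the end held 1.53%, 7.87% and 7.58% over 355 positions, against 2.97%, 12.2% and 11.8%. These were the ends with the fewest members. On chromosome 13 the end held 2.16%, 9.44% and 8.85%, against 3.08%, 12.3% and 12.2%. On chromosome 10 the end held 2.78%, 9.96% and 9.92%, against 3.52%, 12.9% and 12.9%. In R these 2 ends differed from the matched rest by -2.86 and -2.98 points, close to each other although chromosome 10 had 1973 members and chromosome 13 had 628.

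Of the others, the end of chromosome 8 held 2.76% in WWD, 11.6% in R and 11.4% in WT, against 3.42%, 13.7% and 13.8% in its matched rest. On chromosome 12 the end held 2.82%, 11.1% and 10.5%, against 3.06%, 12.3% and 12.2%. The end of chromosome 6 had the lowest WT level of the 19. It held 1.94%, 7.76% and 7.58%, against 2.25%, 9.0% and 8.86%. On chromosome 1 the end held 3.31%, 15.1% and 14.7%, against 3.76%, 15.4% and 15.3%. On chromosome 14 the end held 2.56%, 10.1% and 10.2%, against 2.65%, 10.5% and 10.4%. Across the 19 ends, the WT difference was less negative or more positive where more CpG positions per Mb were listed. Pearson r was 0.555 and Spearman rho 0.695, a description over chromosomes that share 1 pool. Without chromosomes 17 and 18 the values were 0.472 and 0.576.

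Levels within the 3 Mb changed with distance from the tip. This comparison was added after the first values were seen. Bins of distance from the largest base were set against positions more than 10 Mb away on the same chromosome, weighted to the same density. In the outermost 0.25 Mb, WT held 10.3% over 1559 positions, against 13.6% in the distant positions. This was a difference of -3.33 points, and WT was lower on 16 of 19 chromosomes. R held 11.1% there, against 13.7%, and WWD 2.65%, against 3.48%. From 0.25 to 0.5 Mb the WT difference was -2.20 points, from 0.5 to 1 Mb it was -1.11 points and from 1 to 1.5 Mb it was -1.51 points. Farther in, the WT difference over all positions turned positive, but not on all chromosomes. It was 1.79 points from 1.5 to 2 Mb, where 8 of 19 chromosomes were higher and the mean over chromosomes was -0.990 points. From 2 to 2.5 Mb it was 0.367 points, with 10 of 19 higher and a mean of -0.730 points. From 2.5 to 3 Mb it was 1.68 points. Outside the ends it was 2.07 points from 3 to 5 Mb, with 11 of 19 chromosomes higher. From 5 to 10 Mb it was 2.57 points, and WT was higher on 19 of 19 chromosomes. From 1.5 to 3 Mb as 1 stretch, WT was 1.26 points higher over all positions, with 10 of 19 chromosomes higher and a mean over chromosomes of -0.475 points. Over this stretch chromosome 4 weighed most: without it the difference was 0.589 points from 1.5 to 3 Mb, 0.528 points from 1.5 to 2 Mb, 0.183 points from 2 to 2.5 Mb and 1.07 points from 2.5 to 3 Mb. From 2 to 2.5 Mb it was 0.0686 points without chromosome 16 and 0.933 points without chromosome 10. From 2.5 to 3 Mb 13 of 19 chromosomes were higher. Just inside the 3 Mb limit, from 2.5 to 3 Mb, the WT level was 16.2%, against 14.5% in the matched distant positions. Just outside it, from 3 to 5 Mb, the level was 15.4%, against 13.3%. These 2 bins differed in density, with a median of 15 and 21 listed positions per tile, so their levels cannot be compared directly.

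As 1 block, the outermost 1 Mb held 2.34% in WWD, 9.62% in R and 9.37% in WT over 7413 positions, against 2.97%, 11.3% and 11.3% in distant positions. It was lower on 17 of 19 chromosomes in WWD, on 16 in R and on 17 in WT. The mean WT difference was -4.05 ± 4.0 points (SD, n = 19 chromosomes), and -1.90 points when each position had equal weight. Chromosome 7 was the clear exception, with 14.6% in WT, against 11.3%. Chromosome 2 was level, with 8.54% and 8.51%. The lowest difference was that of chromosome 10, where 93 positions held 16.2% in WT, against 26.9%. C and TKO held 0.227% and 0.152% over this block, against 0.235% and 0.165% in distant positions. The counts of lower chromosomes, here and in the bins, are not to be read against an even split. Of the other 782 windows of 3 Mb described below, 36.4% were above the matched remainder of their chromosome in WT. How often other stretches of 1 Mb or less lie below distant positions was not measured.

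**Figure D2:**
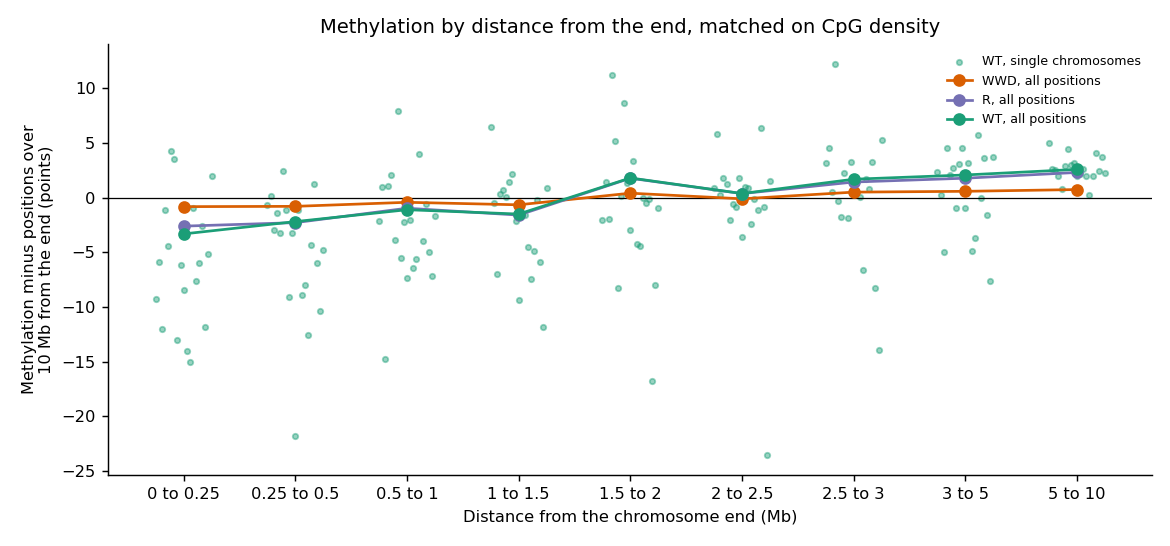
Methylation in bins of distance from the chromosome end (Mb, horizontal axis) minus that of density-matched positions more than 10 Mb away (percentage points, vertical axis). Lines give WWD, R and WT over all positions of a bin and small dots give single chromosomes in WT; the WT line is at -3.33 points in the outermost bin, lies under 0 out to 1.5 Mb and reaches 2.57 points from 5 to 10 Mb.

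The lower level of the outermost 1 Mb was found at tiles with few listed positions. In tiles with under 5 listed positions WT held 24.7% in the outermost 1 Mb, against 28.4% in distant positions, and was lower on 14 of 19 chromosomes. In tiles with 5 to 9 positions it held 21.6%, against 27.4%, and was lower on 18 of 19. In tiles with 10 to 19 positions it held 12.2%, against 18.2%, lower on 14 of 18. In tiles with 40 or more positions, which resemble CpG islands and are mostly unmethylated, WT held 1.04% in the outermost 1 Mb, against 0.594%, but was lower on 8 of 14 chromosomes. A single tile of chromosome 7, described next, weighed on this: without it the difference was 0.184 points, in place of 0.444 points. In tiles with 20 to 39 positions WT held 4.03%, against 3.83%, and was lower on 10 of 15 chromosomes.

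Over the whole 3 Mb the mean difference was negative in sparser and positive in denser tiles, but many chromosomes did not follow it. In tiles with under 5 positions WT held 28.7% in the ends and 29.0% in the matched rest, above it on 8 of 19 chromosomes. At 5 to 9 positions it held 26.6% and 27.9%, above on 5 of 19. At 10 to 19 positions it held 17.6% and 18.7%, above on 6 of 19. In tiles with 20 to 39 positions it held 5.14% and 4.15%, yet was above on only 8 of 18. In tiles with 40 or more positions it held 0.715% in the ends and 0.552% in the matched rest, with 11 of 18 chromosomes higher. The difference of 0.163 points was 0.0961 points without the same tile. Of 344 such dense tiles with at least 5 member positions, 332 (96.5%) were under 5% methylated in WT, against 98.0% of 8948 dense tiles elsewhere on the autosomes. Only 1 dense end tile reached 20% in WT, and it was picked out after its values were seen. It lies on chromosome 7 at chr7:151596001-151597000, 923538 bp from the end. Over 27 positions it held 8.85% in WWD, 32.8% in R, 30.5% in WT, 0.388% in C and 0.0625% in TKO, with 3578 to 4650 read calls per pool. Tiles are given by coordinate alone, as no mm9 gene models were used.

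The last CpG of each chromosome that met the rule lay 0 to 37958 bp from the largest listed base. On chromosome 10 it lay at 129984436 and was methylated in 18.01% of 211 reads in WWD, 55.4% of 359 in R and 53.2% of 314 in WT, against 0.395% of 253 in C and 0% of 285 in TKO. The 95% Wilson intervals were 13.4 to 23.8% in WWD, 50.3 to 60.5% in R and 47.7 to 58.6% in WT, and like all intervals here they cover counting error only. On chromosome 9 it lay at 124040728 and held 9.78% of 184 reads in WWD, 43.4% of 189 in R and 33.6% of 152 in WT, with 0% in C and in TKO. On chromosome 11, at 121818066, it held 0% of 140 reads in WWD, 0% of 237 in R and 1.02% of 197 in WT. On chromosome 16, at 98313041, it held 0% in all 5 pools at 95 to 129 reads, which allows up to 3.74% in WT by the same interval. The outermost CpGs thus ranged from no methylated read to more than the WT mean of any whole end.

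To see whether the terminal 3 Mb stood apart from any other stretch of that length, each autosome was divided into consecutive 3 Mb windows from its end and each window was set against the matched remainder of its chromosome. The WT difference of the terminal window had a median of -0.528 points over the 19 chromosomes. The other 782 windows had a median of -0.735 points and an SD of 3.47 points. The terminal window was at or below the lower quartile of the windows on 5 chromosomes and at or above the upper quartile on 4. It was the lowest of 30 windows on chromosome 18 and the third lowest of 31 on chromosome 17, and the 50th from the lowest of 51 on chromosome 4. The second window, from 3 to 6 Mb, had a median of 1.46 points and was above 0 on 13 chromosomes. The window from 6 to 9 Mb was above 0 on 19 of 19 chromosomes in WT and in R and on 18 in WWD, with medians of 2.53, 2.20 and 0.702 points. Of the other windows together, 36.4% were above 0 in WT.

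**Figure D3:**
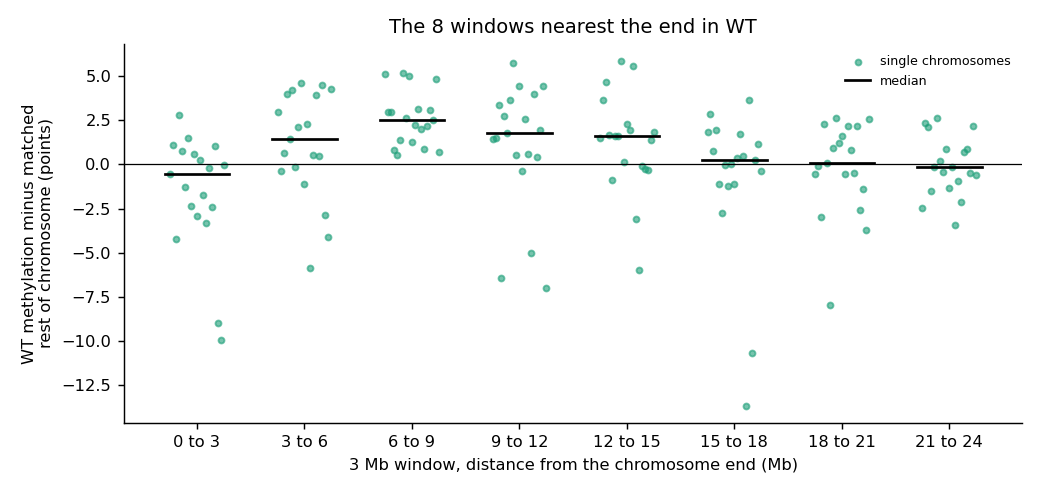
Mean WT methylation of 3 Mb windows minus the density-matched remainder of the same chromosome (percentage points, vertical axis) for the 8 windows nearest the end (horizontal axis, Mb). Dots are single chromosomes and bars medians; the terminal window has a median of -0.528 points and spans 0, while all 19 dots of the window from 6 to 9 Mb lie above 0.

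The WWD mutant was compared with WT to see how much of the gain of methylation over TKO it reached in the ends. WWD was lower than WT in 19 of 19 ends, with 3.05% and 12.2% and a difference of -9.11 points. The difference was -9.12 points in the matched rest. The gain of WWD over TKO was 24.1% of the WT gain in the ends, against 25.2% in the matched rest. The difference in share, -1.09 points, was -0.127 points without the depth rule and -0.389 points over the last 5 Mb. The share was lower in the ends on 15 of 19 chromosomes, with a median difference of -1.33 points and an SD of 1.80 points. It ranged from 18.4% on chromosome 17 to 26.9% on chromosome 10. It did not fall steadily toward the tip: the share was 24.5% in the outermost 0.25 Mb and 24.6% in the distant positions matched to it, and 22.0% and 25.02% from 1 to 1.5 Mb. The share was higher in denser tiles, in the ends and in the rest. In the ends it was 19.5% in tiles with under 5 positions, against 21.1% in the matched rest. At 5 to 9 positions it was 24.97%, against 25.1%, and at 40 or more it was 44.3%, against 54.2%. At 40 or more the share is a ratio of levels near the floor. There WWD held 0.388% in the ends and 0.358% in the matched rest, WT 0.715% and 0.552%, and TKO 0.127% and 0.129%. The mitochondrial mean was 0.12% in WWD, 0.0675% in WT and 0.0771% in TKO, which is not small beside these levels. Its part in the share was not tested.

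Position by position, WWD and WT were tested over all 1263118 positions covered in the 5 pools (two-sided Fisher's exact test on reads, Benjamini-Hochberg adjusted p under 0.01 and at least 25 percentage points). Such tests compare the reads of 2 pools, not conditions. Over all positions tested, 15% were lower in WWD, and 0.258% were higher. In the ends 4751 of 29574 positions were lower (16.1%) and 0 were higher. In the rest under the same depth rule 6 of 858121 were higher, so the 0 does not set the ends apart. The share called lower was 17.7% in the rest of the autosomes under the same depth rule and 16.4% in the matched rest. It reached from 6.10% to 25.03% among the 19 ends. Of 1489 tiles in the ends with at least 5 member positions, 571 were lower (38.3%; Fisher's exact test on summed reads, adjusted p under 0.01, at least 10 points), where 41.4% of all 44449 tiles were. Their median difference was -23.8 points. No end tile was higher in WWD, where 0.00225% of all tiles were. Tile shares, here and below, are not matched on density. End positions lay in tiles with a median of 25 listed positions, against 21 in the rest of the autosomes. A read counts once for each CpG it covers, so tile p-values are too small. With reads divided by the number of positions, 520 end tiles were still called.

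The 2 end tiles with the largest and the third largest fall in WWD both lie on chromosome 5, 2.71 Mb from the end. At chr5:149820001-149821000, with 8 positions, WWD held 18.2%, R 63.3%, WT 65.2%, C 0% and TKO 0.221%. WWD minus WT was -47.0 points, with an adjusted p of 2.69e-106 from the exact test on reads and 6.2e-13 with divided reads. Over the summed reads WWD held 19.3% (95% Wilson interval 17.3 to 21.5%) and WT 64.2% (61.2 to 67.2%). At chr5:149815001-149816000 WWD held 20.2%, R 65.0%, WT 65.6%, C 0.561% and TKO 0% over 6 positions. Between these in rank was chr4:153474001-153475000, with 10.5% in WWD, 57.4% in R and 56.0% in WT over 5 positions. Both tiles of chromosome 5 were also among the 3 end tiles with the largest rise of WT over TKO, together with chr4:153720001-153721000. That tile held 23.0% in WWD, 59.7% in R, 66.4% in WT, 0% in C and 0.25% in TKO.

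WT was methylated above TKO in 19 of 19 ends, with 12.2% and 0.162%. Over all positions tested 22.9% were higher in WT, and in the ends 6043 of 29574 were (20.4%), against 22.5% in the rest of the autosomes under the same depth rule and 20.9% in the matched rest. None was lower in the ends, nor in the rest under the same depth rule. The 0.05% of all positions that were lower in WT lay outside both sets. Of the 1489 end tiles, 633 were higher in WT than in TKO (42.5%), where 45.6% of all tiles were, without matching on density. Methylation stayed incomplete in the ends: 24.2% of positions were above 20% methylated in WT, 6.97% were above 50% and 0.243% were above 80%, with 24.7%, 7.41% and 0.26% in the matched rest. In WWD 3.62% of end positions were above 20%, against 4.10% in the matched rest.

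R and WT were close over the 3 Mb as a whole. R minus WT was 0.04 points in the ends and 0.0388 points in the matched rest, positive on 13 and 14 of 19 chromosomes. In the position test 15 end positions were higher in R (0.0507%) and 11 were lower (0.0372%), where 0.203% and 0.0509% of all positions tested were. Elsewhere on the autosomes under the depth rule the shares were 0.0712% and 0.0608%. Of the end tiles 5 were higher and 6 lower in R (0.336% and 0.403%), where 0.769% and 0.565% of all tiles were, and none passed with divided reads. The tile with the largest rise, chr11:119934001-119935000, held 26.7% in WWD, 58.8% in R and 38.8% in WT over 5 positions, with an adjusted p of 0.000291 from the exact test. Next in size were chr10:127042001-127043000, with 47.3% in R and 30.6% in WT, and chr19:58586001-58587000, with 36.5% and 24.9%. The largest fall was at chr4:153622001-153623000, with 19% in R and 39.6% in WT over 5 positions. It was followed by chr2:181079001-181080000, with 29.8% in R and 47.7% in WT, and chr15:100862001-100863000, with 41.2% and 54.6%.

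In the outermost bin, to 0.25 Mb from the end, R stood slightly above WT. This bin was singled out after its values were seen. In the outermost 0.25 Mb R minus WT was 0.797 points, against 0.0844 points in the matched distant positions, and it was positive on 17 of 19 chromosomes. The chromosome values ranged from -0.366 points on chromosome 13 to 2.96 points on chromosome 3, with a median of 1.33 points. On chromosome 15, 55 positions held 9.42% in R and 6.54% in WT. On chromosome 14, 30 positions held 21.0% and 18.1%, and on chromosome 19, 126 positions held 11.2% and 9.38%. In points the difference was largest in sparse tiles, where levels were highest. With under 5 listed positions R held 23.3% and WT 21.7%, and with 5 to 9 R held 18.3% and WT 16.8%. R was also above WT at 10 to 19 positions (15.6% and 14.7%), at 20 to 39 (3.47% and 3.21%) and at 40 or more (2.02% and 1.87%). In these denser classes R was higher on 6 of 10, 9 of 12 and 4 of 8 chromosomes. Position by position, R was above WT at 599 of the 1559 positions and below it at 463, and the rest were equal. The reads at a single CpG cannot resolve a difference of this size, so the signs at the last CpG of each chromosome are only listed. There R was below WT on chromosomes 1, 3, 4, 5, 7, 8, 11, 15, 17 and 19. R was above WT there on chromosomes 2, 6, 9, 10, 12, 13, 14 and 18, and equal to it on chromosome 16. From 0.25 to 0.5 Mb R minus WT was -0.0201 points, positive on 10 chromosomes. From 0.5 to 1 Mb it was 0.189 points, positive on 14, and over the outermost 1 Mb as a whole it was 0.255 points, positive on 17. From 3 to 5 Mb it was -0.228 points, positive on 7. The coverage of R relative to WT in the outermost 0.25 Mb was 0.97 times that of the matched distant positions, and its part in the difference was not tested.

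**Figure D4:**
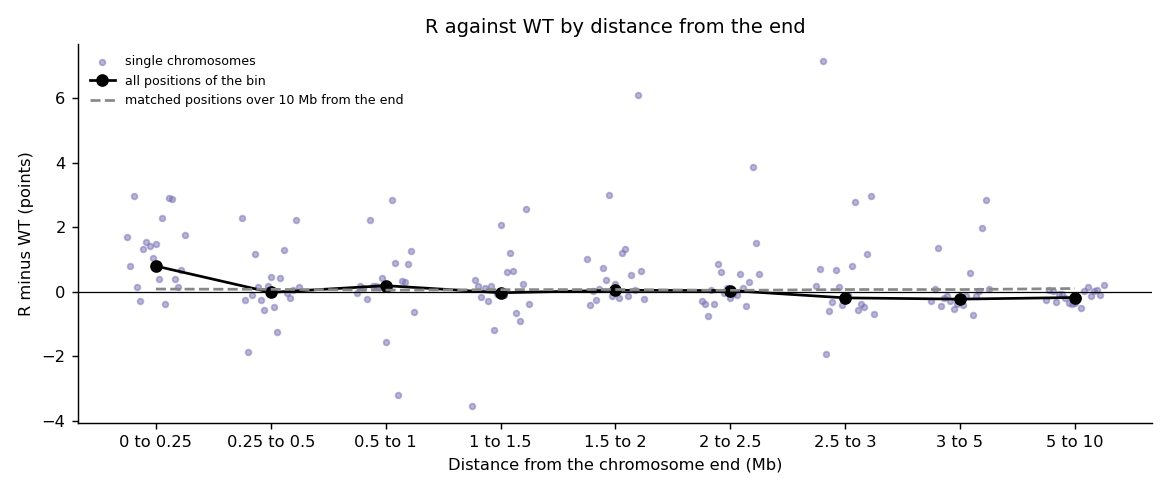
R minus WT methylation (percentage points, vertical axis) in bins of distance from the chromosome end (Mb, horizontal axis). Dots are single chromosomes, the black line all positions of a bin and the dashed line the matched positions more than 10 Mb from the end; the outermost bin is at 0.797 points with 17 of 19 dots above 0.

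C and TKO were nearly unmethylated in every end. C ranged from 0.197% to 0.409% among the 19 ends and TKO from 0.107% to 0.204%, and C was above TKO in 18 of them. C minus TKO was 0.0802 points in the ends and 0.0775 points in the matched rest. In the position test 0 end positions were higher and 0 lower in C than in TKO, where 0.0% and 0.00127% of all positions tested were. No end tile was higher or lower in C, where 0.00225% of all tiles were higher.

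Read coverage at the ends was described, since the title of the series names chromosomal stability. In RRBS it is not a direct measure of DNA amount, as fragments are selected by size and PCR copies cannot be told from molecules. Coverage of an end position was divided by the median coverage of the matched rest, and the median over all end positions was 1.01 in WWD, 1.01 in R, 1.02 in WT, 1.02 in C and 1.02 in TKO. The depth rule moved these values across 1: without it they were 0.974 in WWD, 1.0 in R, 1.01 in WT, 0.979 in C and 0.989 in TKO. Since the rule used the coverage of WT and TKO, their values are a description of the members chosen. On chromosome 10 the end stood at 1.10 in WWD, 1.11 in R, 1.11 in WT, 1.07 in C and 1.15 in TKO. On chromosome 18 the end stood at 0.851 in WWD, 0.843 in R, 0.833 in WT, 0.864 in C and 0.862 in TKO. The ends of chromosomes 12, 17 and 19 also lay between 0.855 and 0.911 in all 5 pools. The gap between the highest and the lowest of WWD, R and C had a median of 0.025 over the 19 ends. It was widest on chromosome 13, where C stood at 0.983 and R at 0.852.

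Set directly against WT at the same positions, and relative to the matched rest, the coverage of WWD was 0.995 times that of WT over all ends and ranged from 0.953 on chromosome 17 to 1.04 on chromosome 19. R was at 1.0, with a range from 0.936 on chromosome 17 to 1.03 on chromosome 7. C was at 0.994, from 0.969 on chromosome 15 to 1.06 on chromosome 13. These ratios, too, are over members chosen in part by their WT coverage. For TKO the depth rule bounds the ratio, so its values are not a result.

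**Figure D5:**
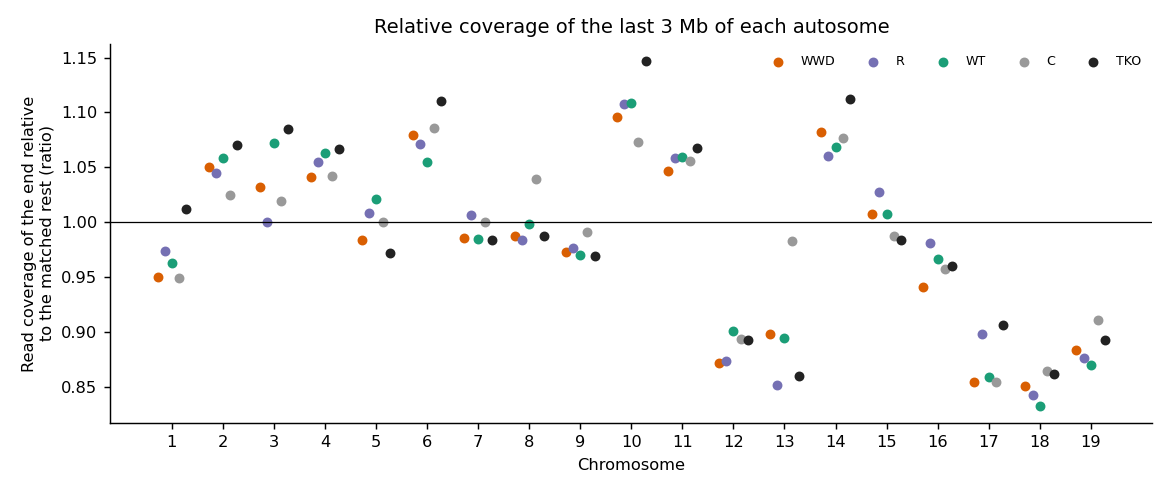
Median read coverage of the end of each autosome relative to the density-matched rest of the same chromosome (ratio, vertical axis) in WWD, R, WT, C and TKO. WT and TKO coverage entered the choice of positions. WWD, R and C lie between 1.07 and 1.11 on chromosome 10 and between 0.843 and 0.864 on chromosome 18, and their gap is widest on chromosome 13.

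The opposite, centromere-near ends were described in the same way as the most similar stretches. The first 3 Mb from the smallest listed base held 21079 positions under the same rule. In WT they held 11.3%, against 12.3% in a matched rest without either end, a difference of -0.961 points, and 16 of 19 chromosomes were lower. Against that same rest, the telomere-near ends differed by -0.206 points, and they were higher than the centromere-near ends on 12 of 19 chromosomes. In WWD the differences were -0.188 points at the telomere-near and -0.344 points at the centromere-near ends. The 5 pools had a relative coverage of 0.992 to 1.0 at the centromere-near ends.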

How the data were processed

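RRBS of 9 samples in 5 groups was used. Bismark, methylKit and mm9 stand in the submitters' processing notes, without versions or order. Each deposited table lists CpG positions by strand, with the read count at the position (its coverage) and, in percent, how much of it was read as C, per the file headers. All listed positions had a coverage of at least 10, as checked. The labels name 1 table for both samples of a group, so each of the authors' tables was treated as a pool. The deposit held 6 tables, of which 5 were used; 1 belongs to no sample, and 8 columns of values were not used.

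Methylated reads were recovered as coverage times percent, rounded. Density was the number of WT-listed positions in the 1 kb tile, matched exactly up to 60 and in steps of 20 above, within each chromosome; strata needed 20 rest positions. Two-sided Fisher's exact tests with Benjamini-Hochberg adjustment ran over all nuclear positions, or over tiles of at least 5 positions meeting the depth rule, and were tested on simulated reads. PCR copies cannot be told from molecules. The named tiles were the called end tiles with the largest rise and fall, up to 3 per comparison and direction. Members and lists were chosen with earlier results of these data known. Python 3.11.15, numpy 2.4.6, pandas 2.3.3 and numba 0.67.0 were used. Other coverage minima, depth filters, end lengths, matchings and thresholds were tried. No sequence is printed, since no genome of this build was used.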

Additional observations from a re-analysis of the deposited data

How the results depend on the processing

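No paired analysis was possible because the deposited tables keep 1 set of values per group and carry no replicate numbers; for the same reason no replicate could be left out. Of the alternatives, 78 values of the main results stayed within their counting interval or within 1.5 times the count, and 68 did not. The differences of the ends from the matched rest turned positive without the depth filter (WWD 0.0329, R 0.153, WT 0.0947 points) and over the last 5 Mb (0.138, 0.647 and 0.773). They were more negative over the last 1 Mb (-0.688, -1.91 and -2.12), without matching (-0.362, -1.05 and -1.05) and with chromosomes weighted equally (-0.534, -1.38 and -1.57). In WT the difference was -0.654 without chromosome 4 and 0.112 without chromosome 15, both chosen after seeing the data. The difference in the WWD share of the WT gain, -1.09 as reported, stayed negative: -0.127 without the depth filter, -0.389 over the last 5 Mb, -0.782 without matching, -1.22 with equal chromosomes and -1.55 over the last 1 Mb. Matching on 5 density classes, in place of exact numbers, and on positions within 50 kb was an alternative chosen after seeing the data. It gave -0.215 in WWD, -0.226 in WT and a difference in share of -1.28. In R and WT they were -0.106 and -0.143 with depth filtered by C, -0.127 and -0.134 with strands joined, and -0.131 and -0.124 without chromosome 8; R was -0.155 at a coverage of 30. The WT difference of the outermost 1 Mb stayed negative throughout: -1.83 with 5 density classes, -1.85 at a coverage of 30, -1.81 with depth filtered by C, -1.68 without that filter, -3.47 without matching, -4.05 with equal chromosomes, -1.97 with strands joined, -1.97 with matching within 50 kb, -1.78 without chromosome 8 and -1.71 without chromosomes 17 and 18. R minus WT in the outermost 0.25 Mb stayed positive, at 1.52 without the depth filter, 0.971 with it by C, 1.22 with equal chromosomes, 0.982 with strands joined and 0.994 without chromosome 4. Relative coverage was 0.974 in WWD, 1.01 in WT, 0.979 in C and 0.989 in TKO without the depth filter, and 1.01 and 1.04 over the last 1 Mb. At a limit of 10 points 2 end positions were higher and 7999 lower in WWD than in WT, and 79 higher and 66 lower in R; at 40 points 1699 were lower in WWD, 2 higher and 2 lower in R, and 3442 higher in WT than in TKO. At an adjusted p under 0.05, 29 were higher and 25 lower in R. With tiles of at least 3 positions 1428 were lower in WWD, 31 higher and 25 lower in R, and 1543 higher in WT than in TKO. Differences from summed reads gave 8 tiles higher in R, and divided reads gave 0 higher and 0 lower. The cause was not tested. Read depth limits single positions, and the single pool per group limits every comparison.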
